A study of Mus musculus with 8 samples.

Results

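The genes described here make up the contractile and excitable machinery of striated muscle, as found in transcripts of whole dissected mouse trachea. The set holds 49 genes out of 37282 gene symbols in the deposited tables, matched by symbol in both tables, and was split by textbook knowledge into 21 genes of skeletal muscle, 7 of cardiac muscle and 21 that both tissues use. They were followed in all 8 libraries, which fall into 4 groups of 2: E13.5 mutants, E13.5 controls, E11.5 mutants and E11.5 controls, E standing for the embryonic day. The mutants carry the label WlsShhCre. The protein made from Wls carries Wnt ligands to the cell surface for secretion, and a Cre expressed from the Shh gene acts in the epithelium that lines the airway, not in muscle. The labels say nothing further of the alleles and call the other group only control. They do not say whether a group's 2 replicates are separate embryos, pools of embryos or litters, so the p-values below measure the spread between these libraries, which may be partly technical. Total RNA was extracted with Trizol and made into libraries with Nextera XT, a kit that does not mark the strand.

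Skeletal muscle of the throat arises from progenitors that carry Pax7 or Myf5, commit under the transcription factors Myod1 and Myog, and then build sarcomeres from embryonic and perinatal myosin heavy chains before the adult forms replace them. Heart muscle uses its own myosins, troponin I and calcium handling proteins, with Myl7 typical of the atria, and shares actin, titin and several troponins with embryonic skeletal muscle. The mature trachea holds smooth muscle; skeletal muscle of the larynx, neck and oesophagus lies beside it in the embryo, as does the heart. Tracheal identity was present in every library, with 52.2 to 93.3 CPM of the lung and tracheal transcription factor Nkx2-1 and 64.0 to 218 CPM of the epithelial adhesion gene Epcam. CPM are read counts scaled to a common library size, with the trimmed mean of M-values (TMM).

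Total counts were 18.48 and 16.76 M in E13.5 mutants, 10.58 and 10.62 M in E13.5 controls, 9.90 and 11.43 M in E11.5 mutants, and 10.96 and 11.90 M in E11.5 controls. The targeted gene Wls had 73.9 and 71.8 CPM in E13.5 mutants, against 167.9 and 158.0 CPM in E13.5 controls, and 118.3 and 109.4 CPM in E11.5 mutants, against 154.9 and 164.3 CPM in E11.5 controls. The mutant libraries were thus the lower ones at both stages, in tissue where Wls is also transcribed outside the epithelium. Each gene was tested with edgeR's quasi-likelihood test on the rounded estimated counts of all 8 libraries. A gene passed when its p adjusted by the Benjamini-Hochberg method over the 14903 genes tested was under 0.05, and every adjusted p below is of this kind. Of the 49 members 44 had enough counts to be tested, 20 skeletal, 7 cardiac and 17 shared. Because this filter keeps a gene that is high in 1 group alone, counts over the 44 do not speak for all 49. The other 5 stood at 25 counts or fewer in every library: Myf6, a late myogenic factor, Myl2 and Myl3, the ventricular and slow muscle myosin light chains, Ckm, the muscle creatine kinase, and Mb, myoglobin. Myl2 had 4 and 0 counts in E13.5 mutants, against 10 and 4 in E13.5 controls, so that a defining marker of ventricular muscle was at or near 0 throughout.

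The sequences before the transcription start of 5 members that recur below are given here for description, as E-boxes are the sites to which Myod1 and Myog bind. They are the 250 bases before each start in RefSeq on build GRCm38.p6, read 5′ to 3′ on the gene's own strand, with every CANNTG motif, the E-box, in capitals. Myog lies at chr1:134289754-134290003 on the plus strand, Tnnc2, the fast skeletal troponin C, at chr2:164779735-164779984 on the minus strand, Casq1, the skeletal calsequestrin, at chr1:172219896-172220145 on the minus strand, Smpx, a small muscle protein of the X chromosome, at chrX:157698723-157698972 on the plus strand, and Myh6, the atrial myosin heavy chain, at chr14:54966608-54966857 on the minus strand.
Myog: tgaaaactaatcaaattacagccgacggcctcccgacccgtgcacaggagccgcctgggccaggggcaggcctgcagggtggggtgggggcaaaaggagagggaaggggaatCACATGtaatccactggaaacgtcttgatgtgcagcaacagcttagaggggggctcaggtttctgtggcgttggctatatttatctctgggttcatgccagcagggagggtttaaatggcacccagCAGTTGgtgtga
Tnnc2: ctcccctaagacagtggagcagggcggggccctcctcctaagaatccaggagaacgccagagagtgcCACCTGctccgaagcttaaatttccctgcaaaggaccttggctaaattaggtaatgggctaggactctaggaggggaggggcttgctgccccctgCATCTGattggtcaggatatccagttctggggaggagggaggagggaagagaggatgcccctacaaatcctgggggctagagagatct
Casq1: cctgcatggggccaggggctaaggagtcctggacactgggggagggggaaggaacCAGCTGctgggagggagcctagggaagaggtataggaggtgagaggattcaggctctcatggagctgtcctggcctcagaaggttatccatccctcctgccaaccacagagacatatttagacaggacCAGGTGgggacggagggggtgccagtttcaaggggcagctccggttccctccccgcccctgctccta
Smpx: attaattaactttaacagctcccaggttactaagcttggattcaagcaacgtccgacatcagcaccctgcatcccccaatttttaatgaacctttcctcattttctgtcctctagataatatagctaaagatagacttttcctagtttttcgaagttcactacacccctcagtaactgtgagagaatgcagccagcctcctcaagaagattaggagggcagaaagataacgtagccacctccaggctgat
Myh6: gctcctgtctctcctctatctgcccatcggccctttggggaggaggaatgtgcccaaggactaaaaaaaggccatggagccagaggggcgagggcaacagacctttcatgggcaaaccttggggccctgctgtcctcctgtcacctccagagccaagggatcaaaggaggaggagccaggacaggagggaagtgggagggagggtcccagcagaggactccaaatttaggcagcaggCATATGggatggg

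These windows held 2 E-boxes before Myog, 2 before Tnnc2, 2 before Casq1, none before Smpx and 1 before Myh6. Of the 49 members 39 had an entry in the RefSeq promoter table as used, which left out 1 chromosome. CANNTG, which reads the same on both strands as a pattern, occurred in 32 of these 39 (82.1%), against 66.2% of all 32851 windows of that length. For this and the motifs below a member counted if any of its windows matched. All windows were counted singly, so members with several windows are favoured. Among the classes it was found in 11 of 15 skeletal, 7 of 7 cardiac and 14 of 17 shared members. A CArG box, the site of serum response factor, stood before 5 of the 39 (12.8%), namely Myl7, Acta1, Actc1, Myl3 and Myom1, against 1.47% of all windows. A MEF2 site, bound by the MEF2 factors, stood before 5 (12.8%), namely Myh1, Myh8, Casq2, Mybpc3 and Ttn, against 2.92% of all windows. It was searched only as YTAWWWWTAR, where Y is C or T, W is A or T and R is A or G. Near matches, such as ctatatttat before Myog, were not counted. Both were searched on both strands, and a match is a description of the letters, not evidence of binding. These coordinates belong to GRCm38.p6 and the deposited counts to mm9, and the 2 builds were not compared by position.

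The first comparison asked whether striated muscle transcripts differed between WlsShhCre and control tracheae at E13.5. The skeletal class was higher and the cardiac class lower in the mutant libraries. Summed over its members, the skeletal class reached 815 and 312 CPM in E13.5 mutants, against 202 and 196 CPM in E13.5 controls. The cardiac class summed to 280 and 78.8 CPM in E13.5 mutants, against 997 and 428 CPM in E13.5 controls. The shared class summed to 1019 and 385 CPM in E13.5 mutants, against 1450 and 736 CPM in E13.5 controls, and its groups overlapped, unlike those of the other classes. The ratio of the group means was 2.83-fold for the skeletal class and 0.252-fold for the cardiac class. Myh6 and Myl7 made 52.7% and 28.4% of the cardiac sum in E13.5 control replicate 1, and 51.1% and 27.8% in replicate 2. In E13.5 mutant replicate 1 they made 45.5% and 21.8%, and in replicate 2 Ryr2 led with 30.8%. The cardiac ratio thus rests mostly on Myh6 and Myl7 and does not speak for Ryr2, Casq2 and Pln. Without E13.5 mutant replicate 1 the skeletal log2 ratio of 1.50 shrank to 0.65, and the cardiac one of -1.99 became -3.18. Without E13.5 mutant replicate 2 they were 2.04 and -1.35, and without E13.5 control replicate 1 the cardiac ratio was -1.25.

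**Figure D1:**
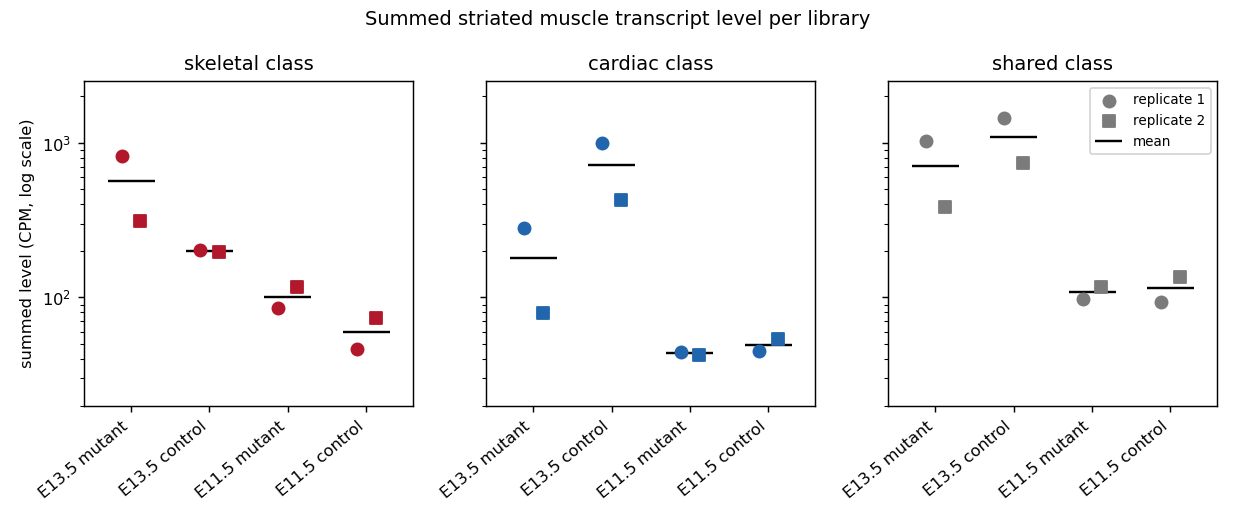
Summed level of each class in each of the 8 libraries, in CPM on a log axis, with 1 point per library and a bar at the mean of each group. In the skeletal panel both E13.5 mutant libraries (815 and 312 CPM) stand above the E13.5 controls (202 and 196 CPM), and in the cardiac panel both (280 and 78.8 CPM) stand below them (997 and 428 CPM).

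Of the 44 members tested, 5 passed at E13.5, 3 higher and 2 lower in mutants (11.4%), against 11.8% of all genes tested, of which 5.97% were higher and 5.82% lower. In the edgeR fit the share of members was thus near that of the background. Other fits called more members and not more genes: DESeq2 called 10 members (22.7%), against 8.27% of all genes, and limma-voom 12 (27.3%), against 11.7% of all genes. An unadjusted p under 0.05 was reached by 24 members, 16 of them skeletal, against 23.9% of all genes. The number of members called changed when single libraries were left out, and was highest without E13.5 mutant replicate 2. That of all genes changed as well, so such counts are not read as results about the members. Libraries of a group that lay wholly apart gave a plainer split by class. Both mutant libraries lay above both controls for 18 of 20 skeletal members, 1 of 7 cardiac and 2 of 17 shared, against 27.3% of all genes tested. Both mutant libraries lay below both controls for 1 skeletal, 4 cardiac and 7 shared members, against 27.2% of all genes. The median log2 fold change was 1.67 over the skeletal class, -2.01 over the cardiac class and -0.77 over the shared class, while that of all genes tested was -0.0023.

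**Figure D2:**
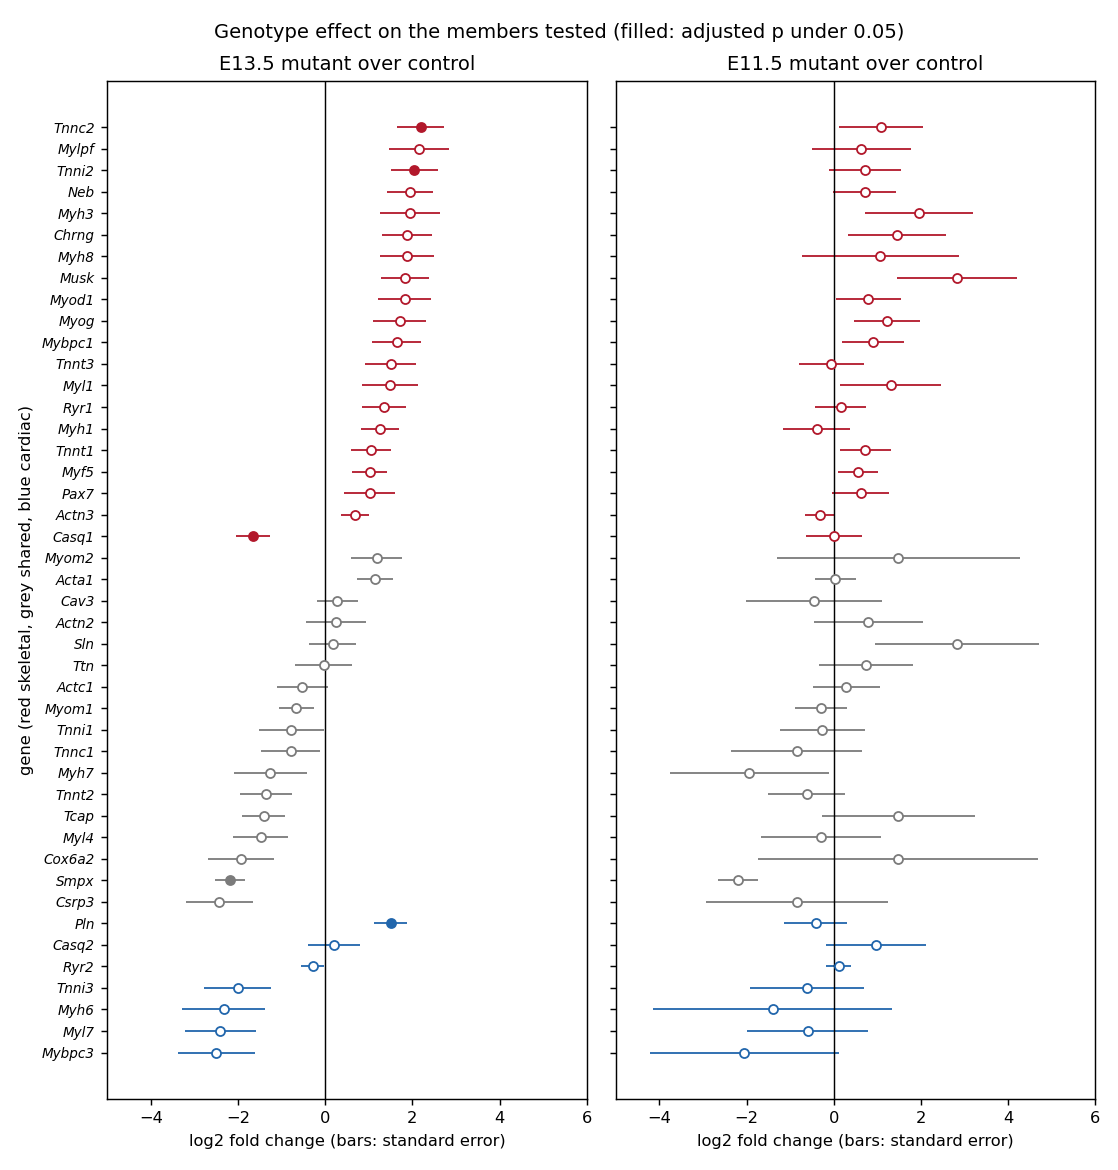
Log2 fold change of mutant over control for the 44 members tested, at E13.5 and at E11.5, with bars of 1 standard error; red marks skeletal, grey shared and blue cardiac members, and filled points passed at an adjusted p under 0.05. At E13.5 the red points lie to the right except for Casq1 (-1.66), most blue points lie to the left except for Pln (1.50) and Casq2, and the 5 filled points are Tnnc2, Tnni2, Pln, Smpx and Casq1; no point is filled at E11.5.

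The myogenic regulators follow in order of commitment. Pax7, the mark of muscle progenitors, had 8.17 and 3.16 CPM in E13.5 mutants, against 2.43 and 3.19 CPM in E13.5 controls, and was the 1 skeletal member whose groups overlapped. Myf5, an early determination factor, had 3.81 and 1.70 CPM in E13.5 mutants, against 1.22 and 1.50 CPM in E13.5 controls, and its groups were apart. Myod1, which commits cells to the lineage, had 30.1 and 11.4 CPM in E13.5 mutants, against 5.71 and 6.0 CPM in E13.5 controls. Both mutant libraries were higher, yet the log2 fold change of 1.83 ± 0.61 (SE) did not pass (adjusted p = 0.159). It was 2.36 and passed without E13.5 mutant replicate 2 (adjusted p = 0.000294), and was 0.96 without E13.5 mutant replicate 1. Myog, which starts terminal differentiation, had 66.3 and 28.7 CPM in E13.5 mutants, against 13.2 and 15.9 CPM in E13.5 controls. Its groups did not overlap either, and its log2 fold change of 1.71 ± 0.61 (SE) had an adjusted p of 0.195, with 0.98 without E13.5 mutant replicate 1.

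Genes of the skeletal thick filament showed the same order of libraries. Myh3, the embryonic myosin heavy chain, had 240 and 85.4 CPM in E13.5 mutants, against 34.7 and 49.4 CPM in E13.5 controls. The lower mutant library still stood above both controls, and the log2 fold change was 1.95 ± 0.69 (SE) with an adjusted p of 0.194, and 1.02 without E13.5 mutant replicate 1. Myh8, the perinatal heavy chain, had 45.5 and 15.0 CPM in E13.5 mutants, against 8.24 and 8.25 CPM in E13.5 controls. Mylpf, the fast regulatory light chain, had 67.4 and 22.6 CPM in E13.5 mutants, against 9.08 and 11.2 CPM in E13.5 controls. Myl1, Mybpc1, a myosin-binding protein of skeletal fibres, and Myh1, an adult fast heavy chain, likewise had both mutant libraries above both controls. The myosin heavy chains are near-identical copies in part of their length, and estimated counts may have been split among them.

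In the skeletal thin filament, 2 troponins passed. Tnnc2, which binds calcium in fast fibres, had 14.8 and 5.74 CPM in E13.5 mutants, against 2.25 and 2.25 CPM in E13.5 controls. Its mutant libraries were both higher, and it rose by 2.19 ± 0.54 (SE) on the log2 scale with an adjusted p of 0.0445 in edgeR's test. Tnni2, the fast inhibitory troponin, had 6.39 and 2.11 CPM in E13.5 mutants, against 1.12 and 0.937 CPM in E13.5 controls, and it rose by 2.04 ± 0.54 (SE) with an adjusted p of 0.0346. Neb, the nebulin that spans the thin filament, had 84.1 and 35.5 CPM in E13.5 mutants, against 12.7 and 18.2 CPM in E13.5 controls, with the groups apart. Tnnt1, Tnnt3 and Actn3, the slow and fast troponin T and an alpha-actinin of fast fibres, were also apart, the nearest being Actn3 with 2.87 CPM in E13.5 mutant replicate 2 against 2.71 CPM in E13.5 control replicate 1. Tnnc2 lost its call without E11.5 mutant replicate 1 or 2 or E13.5 control replicate 1 or 2 (adjusted p 0.101 to 0.254), and without E13.5 mutant replicate 1 its log2 fold change was 1.35. Tnni2 lost it without any single library other than E13.5 mutant replicate 2 (adjusted p 0.0602 to 0.215), and its log2 fold change was 1.03 without E13.5 mutant replicate 1.

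At the neuromuscular junction, Chrng, the fetal subunit of the acetylcholine receptor, had 12.8 and 4.39 CPM in E13.5 mutants, against 2.25 and 2.44 CPM in E13.5 controls. Musk, the kinase that clusters that receptor, had 3.38 and 1.29 CPM in E13.5 mutants, against 0.562 and 0.750 CPM in E13.5 controls. Both had their groups apart, with the mutants higher. Ryr1, the calcium release channel of skeletal muscle, had 55.1 and 21.9 CPM in E13.5 mutants, against 14.6 and 15.7 CPM in E13.5 controls.

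Casq1 went the other way from the rest of its class. This calcium-binding protein of the sarcoplasmic reticulum had 10.7 and 7.02 CPM in E13.5 mutants, against 37.4 and 18.6 CPM in E13.5 controls. Both mutant libraries were below both controls, and it fell by 1.66 ± 0.39 (SE) on the log2 scale, with an adjusted p of 0.0467 in edgeR's test. The call was lost without any 1 of the 4 E11.5 libraries or of the 2 E13.5 mutant libraries (adjusted p 0.0791 to 0.164), and the log2 fold change was -1.06 without E13.5 control replicate 1. Of the skeletal members tested Casq1 also differed most between the 2 E13.5 controls, with a log2 ratio of replicate 1 over replicate 2 of 0.99, where the cardiac median was 1.16 and the skeletal median -0.03.

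The cardiac sarcomere genes were lower in mutants with a wide spread. Myh6, the atrial myosin heavy chain, had 127 and 20.2 CPM in E13.5 mutants, against 526 and 218 CPM in E13.5 controls. The groups did not overlap, and the log2 fold change of -2.33 ± 0.96 (SE) had an adjusted p of 0.255. Myl7, the atrial light chain, had 61.0 and 14.3 CPM in E13.5 mutants, against 283 and 119 CPM in E13.5 controls. It was again lower in both mutants, with a log2 fold change of -2.41 ± 0.81 (SE) and an adjusted p of 0.180. Tnni3, the cardiac troponin I, had 11.7 and 3.34 CPM in E13.5 mutants, against 44.7 and 16.2 CPM in E13.5 controls. Its log2 fold change was -2.01 ± 0.77 (SE) with an adjusted p of 0.220. Mybpc3, the cardiac myosin-binding protein, had 16.9 and 2.81 CPM in E13.5 mutants, against 76.6 and 36.3 CPM in E13.5 controls, the groups being apart. These folds moved with single libraries. Without E13.5 mutant replicate 1 the log2 fold change was -4.20 for Myh6, -3.81 for Myl7 and -3.18 for Tnni3. Without E13.5 mutant replicate 2 it was -1.55, -1.72 and -1.38 for these genes, and without E13.5 control replicate 1 it was -1.56, -1.64 and -1.10. None of the 3 passed with any 1 library left out. In bulk tissue, fewer muscle cells and less RNA per muscle cell cannot be told apart, and this holds for every level given here.

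The calcium handling members of the cardiac class did not follow its sarcomere genes. Ryr2, the cardiac calcium release channel, which neurons and smooth muscle also use, had 34.8 and 24.2 CPM in E13.5 mutants, against 44.0 and 28.3 CPM in E13.5 controls, and the groups overlapped. Casq2, the cardiac calsequestrin, had 24.7 and 10.1 CPM in E13.5 mutants, against 21.2 and 9.18 CPM in E13.5 controls, again with overlap. Pln, phospholamban, which restrains the calcium pump of heart and smooth muscle, had 3.65 and 3.80 CPM in E13.5 mutants, against 1.97 and 0.656 CPM in E13.5 controls. It rose by 1.50 ± 0.38 (SE) on the log2 scale, with an adjusted p of 0.0195 in edgeR's test. The adjusted p was 0.169, with a log2 fold change of 0.92, without E13.5 control replicate 2, and 0.0502 without either E13.5 mutant library; without E13.5 control replicate 1 the log2 fold change was 2.49. Smooth muscle markers moved with Pln: the 10 genes of that list summed to 2665 and 3235 CPM in E13.5 mutants, against 1233 and 1441 CPM in E13.5 controls, with 7 of 10 passing as higher and none at 0. The part of smooth muscle in the Pln result was not tested.

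Among the shared members Smpx had the clearest difference. It codes for a small protein of the costamere and had 4.14 and 1.93 CPM in E13.5 mutants, against 15.2 and 12.7 CPM in E13.5 controls. The groups were far apart beside their own spread, and it fell by 2.19 ± 0.35 (SE) on the log2 scale, with an adjusted p of 0.00298 in edgeR's test. It passed with each single library left out (adjusted p 9.13e-05 to 0.0284), with a log2 fold change of -2.85 without E13.5 mutant replicate 1 and -1.75 without E13.5 mutant replicate 2. Smpx lies on the X chromosome, and Xist, the transcript of the inactive X of females, differed between libraries, with 6.34 and 1224 CPM in E13.5 mutants, against 2673 and 1841 CPM in E13.5 controls. Ddx3y, a gene of the Y chromosome, had 106.5 and 66.8 CPM in E13.5 mutants, against 19.8 and 48.2 CPM in E13.5 controls. At E11.5 Xist had 846 and 526 CPM in mutants, against 1168 and 1847 CPM in controls, and Ddx3y 32.8 to 61.8 CPM. Xist was thus low only in E13.5 mutant replicate 1, the library that also had the highest skeletal sum. The part of sex in the Smpx result and in the class sums was not tested.

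The sarcomere genes of heart and skeletal muscle alike mostly lay between the 2 patterns. Actc1, the cardiac actin, which embryonic skeletal muscle also makes, had 332 and 137 CPM in E13.5 mutants, against 433 and 246 CPM in E13.5 controls, with overlap and a log2 fold change of -0.53 ± 0.58 (SE) at an adjusted p of 0.674. Acta1, the skeletal actin, had 76.8 and 35.5 CPM in E13.5 mutants, against 27.9 and 23.3 CPM in E13.5 controls. Both mutants were higher here, with a log2 fold change of 1.14 ± 0.42 (SE) at an adjusted p of 0.204. It passed without either E13.5 mutant library, with 1.59 without replicate 2 (adjusted p = 5.92e-07) and 0.47 without replicate 1 (adjusted p = 0.0296). Reads of these near-identical actins may have been split between them. Ttn, titin, had 176 and 59.0 CPM in E13.5 mutants, against 161 and 79.8 CPM in E13.5 controls, with a log2 fold change of -0.04 ± 0.65 (SE) at an adjusted p of 0.985; without E13.5 control replicate 1 this value was 0.56 and without E13.5 mutant replicate 2 it was 0.54. Tnnt2, the cardiac troponin T, had 49.3 and 20.9 CPM in E13.5 mutants, against 125 and 55.5 CPM in E13.5 controls. Its groups were apart, with a log2 fold change of -1.36 ± 0.60 (SE) at an adjusted p of 0.288, and -2.11 without E13.5 mutant replicate 1 or -0.65 without E13.5 control replicate 1. Csrp3, the muscle LIM protein, had 11.4 and 4.39 CPM in E13.5 mutants, against 65.3 and 20.4 CPM in E13.5 controls. Myl4, the light chain of atria and embryonic muscle, had 77.0 and 29.3 CPM in E13.5 mutants, against 207 and 89.5 CPM in E13.5 controls, and Myh7, Cox6a2 and Tcap were likewise lower in both mutants. Myom2, an M-band protein, was with Acta1 the only shared member above both controls in both mutants, at 11.8 and 3.86 CPM in E13.5 mutants, against 3.56 and 3.37 CPM in E13.5 controls.

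**Figure D3:**
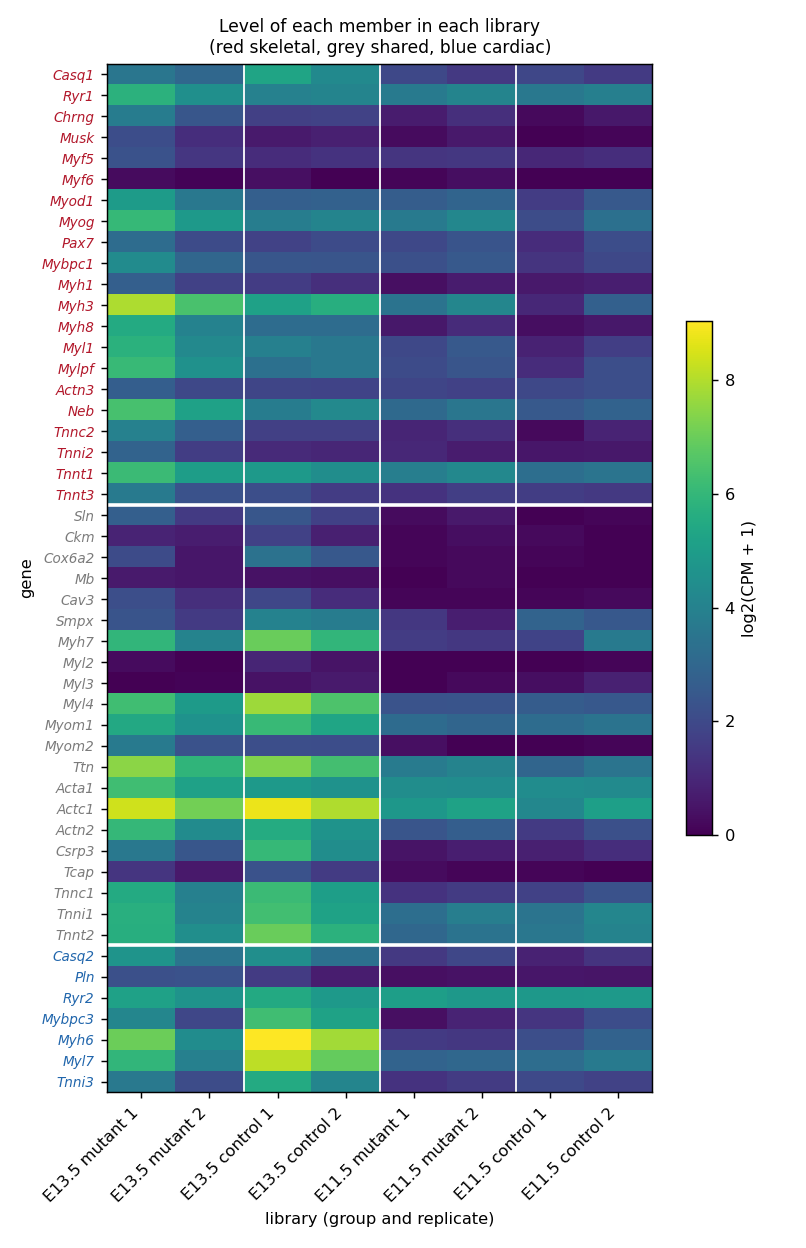
Level of each of the 49 members in each library as log2(CPM + 1), with columns ordered E13.5 mutants, E13.5 controls, E11.5 mutants and E11.5 controls. Brighter cells are higher levels: skeletal rows such as Myh3 are brightest in E13.5 mutant replicate 1 (240 CPM), cardiac rows such as Myh6 in E13.5 control replicate 1 (526 CPM), and the rows of Myl2, Myl3, Myf6, Ckm and Mb are dark in every column, at 2.34 CPM or less.

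The 2 E13.5 mutant libraries differed in striated muscle by more than most genes did between them, and so did the E13.5 controls in the cardiac and shared classes. In E13.5 mutants all 20 skeletal members tested were higher in replicate 1 than in replicate 2, by a median of 1.30 on the log2 scale (0.57 to 1.57), as were all 17 shared members (median 1.38) and 6 of 7 cardiac ones (median 1.66). For all genes tested, 95% of these ratios lay between -0.58 and 0.57. In E13.5 controls the classes parted. There 8 of 20 skeletal members were higher in replicate 1, with a median of -0.03, against 7 of 7 cardiac members (median 1.16) and 17 of 17 shared members (median 0.95). Among the shared genes the E13.5 controls separated Myom2 (0.07), Smpx (0.24) and Acta1 (0.25), whose replicates were close, from Csrp3 (1.65), whose replicates were as far apart as cardiac ones. Of the cardiac members only Pln (-0.05) and Ryr2 (0.51) lay between -0.58 and 0.57 in the E13.5 mutants. At E11.5 the medians of the 3 classes were between -0.40 and -0.13 in mutants and between -0.52 and -0.26 in controls, that is, higher in replicate 2. Single members parted the E11.5 controls further, such as Myh3 (-2.07), Myh7 (-2.05) and Myog (-1.34), where 95% of all genes tested lay between -0.49 and 0.60. In these controls 2 of 20 skeletal, 2 of 7 cardiac and 5 of 17 shared members were higher in replicate 1. Members of a class were measured in the same libraries and are not separate observations of a difference between them.

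**Figure D4:**
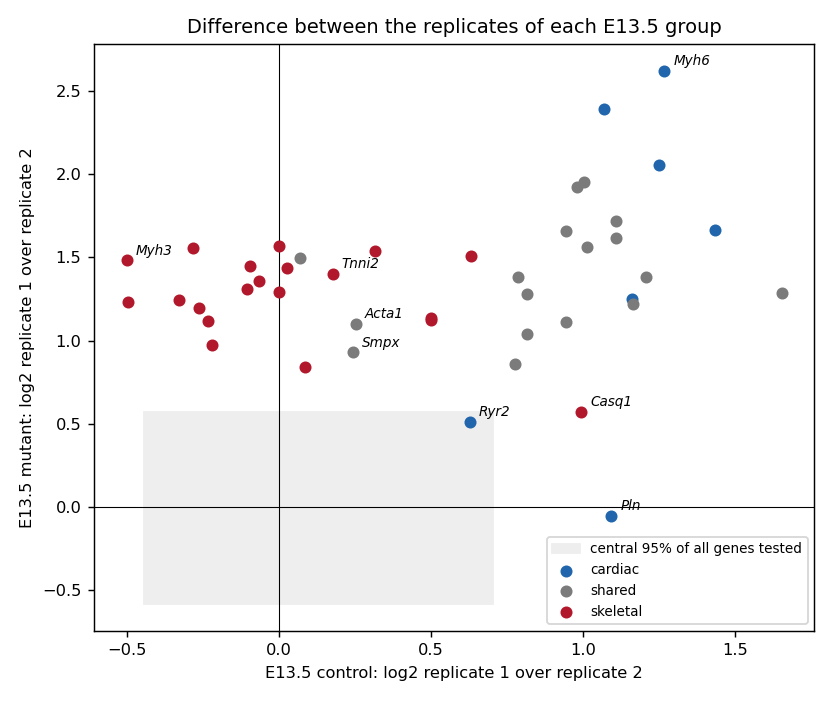
Log2 ratio of replicate 1 over replicate 2 for each member tested, in the E13.5 controls (horizontal axis) and in the E13.5 mutants (vertical axis), after adding 0.5 CPM. Skeletal members (red) gather near 0 in the controls (median -0.03) and mostly above 1 in the mutants (median 1.30). Most cardiac members (blue) lie far from 0 in both (medians 1.16 and 1.66). Casq1 lies with the cardiac ones in the controls (0.99). In the mutants Pln (-0.05) and Ryr2 (0.51) lie nearer to 0 than the other cardiac members.

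Levels of different genes were compared per length, as RPKM, the read density of a gene for its length and the size of the library. In E13.5 mutants Actc1 led with a mean of 171 RPKM (241 and 100 in the 2 libraries), followed by Myl7 with 64.4 (104 and 24.6), Myl4 with 60.8 (87.9 and 33.8), the skeletal Mylpf with 60.2 (89.9 and 30.5) and Tnnt1 with 55.3 (75.9 and 34.7). The replicate ranges of the last 4 overlapped, so their order is not settled. In E13.5 controls Myl7 led with 343 RPKM (484 and 202), then came Actc1 with 246 (315 and 178), Myl4 with 169 (237 and 102), Tnnc1 with 74.4 (102 and 46.7) and Tnnt2 with 72.7 (101 and 44.5). Neighbours in that order overlapped as well. The first skeletal member there was Tnnt1, in the tenth place, with 26.6 RPKM. At E11.5 Actc1 had the highest mean in both groups, with 22.2 RPKM in mutants (18.9 and 25.4) and 17.9 RPKM in controls (12.2 and 23.6). In E11.5 controls it overlapped with Myl7 (13.8 and 20.1) and Acta1 (13.9 and 13.1).

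At E11.5 the same comparison of genotypes found no member past the threshold. Each gene has 1 estimate of spread over all 8 libraries, so the wide E13.5 replicates enter the errors here too. The SE of the log2 fold change was 0.74 for Myod1, 0.75 for Myog, 1.24 for Myh3 and 2.74 for Myh6. The lack of a call is thus not evidence that the genotypes were alike. In E11.5 mutants 0 of 44 members passed, against 0.362% of all genes tested, of which 0.0738% were higher and 0.289% lower. An unadjusted p under 0.05 was reached by 1 member, Smpx, against 7.54% of all genes, DESeq2 called 1 member and limma-voom 0. The count of 0 did not hold without either E13.5 mutant library, and that of all genes also changed with single libraries left out. The skeletal class summed to 85.1 and 117 CPM in E11.5 mutants, against 46.3 and 73.7 CPM in E11.5 controls, and these ranges were apart. The cardiac class summed to 44.7 and 42.2 CPM in E11.5 mutants, against 45.1 and 53.8 CPM in E11.5 controls, close together although apart. Ryr2 alone made 51.5% to 72.4% of this sum in each E11.5 library, so the sum says little of the other 6 members. The shared class summed to 97.8 and 118 CPM in E11.5 mutants, against 93.2 and 136 CPM in E11.5 controls, with overlap. Both mutant libraries lay above both controls for 12 of 20 skeletal members, 1 of 7 cardiac and 4 of 17 shared, against 18.1% of all genes. They lay below for 1 skeletal, 5 cardiac and 7 shared members, against 17.9% of all genes. The median log2 fold changes of the classes were 0.72, -0.60 and -0.27 for skeletal, cardiac and shared members.

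Smpx had 1.73 and 0.705 CPM in E11.5 mutants, against 6.36 and 4.63 CPM in E11.5 controls, again the lower in both mutant libraries. Myod1 had 5.29 and 6.61 CPM in E11.5 mutants, against 2.03 and 4.81 CPM in E11.5 controls, with a log2 fold change of 0.79 at an adjusted p of 0.939. Myog had 12 and 17.3 CPM in E11.5 mutants, against 3.32 and 9.18 CPM in E11.5 controls, with a log2 fold change of 1.22 at an adjusted p of 0.854. For both regulators both mutant libraries stood above both controls. Myh3 had 9.98 and 16.9 CPM in E11.5 mutants, against 1.01 and 5.83 CPM in E11.5 controls, with a log2 fold change of 1.96 at an adjusted p of 0.867. Myh6 had 1.93 and 1.76 CPM in E11.5 mutants, against 3.50 and 6.18 CPM in E11.5 controls, with a log2 fold change of -1.40 at an adjusted p of 0.981. The heart sarcomere genes Myh6, Myl7, Tnni3 and Mybpc3 stood at 12.1 CPM or less in every E11.5 library, with both mutants below both controls, while Ryr2 had 32.4 and 27.4 CPM in E11.5 mutants, against 27.5 and 27.7 CPM in E11.5 controls, and Casq2 was higher in both mutants. The adjusted p of the other defining genes was 0.966 for Ttn (log2 fold change 0.75), 0.987 for Myl7 (-0.60), 0.983 for Tnni3 (-0.61), 0.966 for Tnnt2 (-0.62), 0.989 for Actc1 (0.29) and 1.00 for Acta1 (0.03). The sign of the last pair did not hold: Actc1 was at -0.11 without E11.5 control replicate 1 and Acta1 at -0.01 without E11.5 control replicate 2.

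Whether the genotype difference itself changed between the stages was tested as an interaction. No member passed (0 of 44), against 3.33% of all genes tested, 1.63% upwards and 1.7% downwards, with 1 member, Pln, at an unadjusted p under 0.05, against 15.9% of all genes; DESeq2 and limma-voom called 0 members. The interaction of Myod1 was 1.04 with an adjusted p of 0.717, that of Myl7 -1.80 with 0.710, and that of Acta1 1.10 with 0.524. Myog had 0.49 with an adjusted p of 0.883, Tnni3 -1.40 with 0.769, Tnnt2 -0.73 with 0.830, Actc1 -0.82 with 0.787, Ttn -0.78 with 0.848 and Myh6 -0.93 with 0.941. Myh3 stood at -0.00 with an adjusted p of 1.00. A difference between the stages in the genotype effect was thus not shown for any member. The SE of the interaction was 0.97 for Myod1, 1.64 for Myl7 and 3.18 for Myh6, so equal effects were not shown either. The count of 0 did not hold without E13.5 mutant replicate 2 or E13.5 control replicate 2. That of all genes changed with single libraries left out as well.

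Controls were then compared between the stages, and striated muscle genes were higher at E13.5, with larger medians in the cardiac and shared classes than in the skeletal one. In E13.5 controls 23 of 44 members passed as higher than in E11.5 controls and 0 as lower. Of all genes tested 42.4% passed in either direction and 21.4% as higher. By class the members that passed were 3 of 20 skeletal, 6 of 7 cardiac and 14 of 17 shared ones. Over all members tested the median log2 fold changes of these classes were 1.41, 3.65 and 3.82. An unadjusted p under 0.05 was reached by 29 members, against 50.2% of all genes. Both E13.5 libraries lay above both E11.5 libraries for 16 of 20 skeletal, 7 of 7 cardiac and 17 of 17 shared members, against 36.9% of all genes. They lay below for 1 skeletal member, Actn3, against 36.3% of all genes. The tables of the 2 stages were made separately, so stage and table cannot be told apart. The count of members fell without any single E11.5 library or E13.5 control library, and rose without either E13.5 mutant library. That of all genes changed as well.

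Myh6 had 526 and 218 CPM in E13.5 controls, against 3.50 and 6.18 CPM in E11.5 controls, a log2 fold change of 6.25 ± 1.37 (SE) at an adjusted p of 0.0260. Myl7 increased by 4.29 ± 0.99 (SE) on the log2 scale (adjusted p = 0.0299), Tnni3 by 3.51 ± 0.92 (adjusted p = 0.0418) and Tnnt2 by 2.77 ± 0.70 (adjusted p = 0.0384). Actc1 rose by 3.74 ± 0.71 (SE; adjusted p = 0.0169) and Ttn by 3.84 ± 0.88 (adjusted p = 0.0292). All 6 lost the call without E13.5 control replicate 1 (adjusted p 0.0700 to 0.121) and without either E11.5 control (0.0695 to 0.181), and all but Actc1 also without either E11.5 mutant library (0.0587 to 0.0866); Ttn also lost it without E13.5 control replicate 2 (0.0517). The skeletal regulators did not pass: Myod1 had a log2 fold change of 0.76 (adjusted p = 0.473), Myog of 1.20 (adjusted p = 0.277), and the skeletal structural genes Myh3 and Acta1 had 3.58 (adjusted p = 0.0591) and 0.38 (adjusted p = 0.564). The 3 skeletal members that passed were Casq1, Myh8 and Musk. The calls that held with each library left out in turn were Casq1, Cav3, Sln and Tcap. Casq1 had 37.4 and 18.6 CPM in E13.5 controls, against 2.76 and 1.89 CPM in E11.5 controls, and rose by 3.59 ± 0.48 (SE; adjusted p = 0.00179). Tcap, the titin cap, and Sln, sarcolipin, each had 1 count in all in E11.5 controls. Their ratios of E13.5 over E11.5 controls were 65.3 (95% exact interval 11.3 to 2622) and 75.9 (13.2 to 3038), for counting error only. Cav3, the muscle caveolin, had 43 counts in E13.5 controls and 3 in E11.5 controls, a ratio of 15.1 (4.84 to 76.1). Cox6a2, a muscle subunit of cytochrome oxidase, Myom2 and Musk also had 1 count in E11.5 controls, with ratios of 159 (28.1 to 6326), 78.0 (13.6 to 3121) and 14.8 (2.25 to 623.8). The other members that passed rose by 5.38 (Csrp3), 4.91 (Myl4), 4.45 (Mybpc3), 4.33 (Myh8), 4.04 (Tnnc1), 3.65 (Casq2), 3.65 (Actn2), 2.56 (Myom1), 1.54 (Pln) and 1.35 (Smpx) on the log2 scale, with adjusted p between 0.0107 and 0.0439 in edgeR's test, and each of these missed the threshold with at least 1 library left out.

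In the mutants the same comparison found 13 skeletal members passing as higher at E13.5, where the controls had 3. In E13.5 mutants 27 of 44 members passed as higher than in E11.5 mutants and 0 as lower. Of all genes tested 48.4% passed in either direction and 23.9% as higher. By class the members that passed were 13 of 20 skeletal, 2 of 7 cardiac and 12 of 17 shared ones. Over all members tested the median log2 fold changes of these classes were 2.22, 2.88 and 3.10. An unadjusted p under 0.05 was reached by 35 members, against 54.8% of all genes. Both E13.5 libraries lay above both E11.5 libraries for 18 of 20 skeletal, 6 of 7 cardiac and 17 of 17 shared members, against 37.7% of all genes. That the classes differed between mutants and controls here was tested only through the interaction above, which no member passed. The count of members fell without any single library other than E13.5 mutant replicate 2, and rose without that one. That of all genes changed as well.

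Myh3 had 240 and 85.4 CPM in E13.5 mutants, against 9.98 and 16.9 CPM in E11.5 mutants, and rose by 3.58 ± 0.79 (SE) on the log2 scale at an adjusted p of 0.0235. Ttn rose by 3.06 ± 0.81 (SE; adjusted p = 0.0392), Actc1 by 2.91 ± 0.69 (adjusted p = 0.0284) and Acta1 by 1.49 ± 0.43 (adjusted p = 0.0471). Each of these 4 lost its call without either E11.5 mutant (adjusted p 0.103 to 0.189), and Myh3, Ttn and Actc1 without E13.5 mutant replicate 1 (0.0515 to 0.0829); Ttn, Actc1 and Acta1 lost it without either E11.5 control library (0.0515 to 0.0903), and Myh3, Ttn and Acta1 without either E13.5 control library (0.0515 to 0.0905). Without E13.5 mutant replicate 1 the log2 fold change of Acta1 was 0.82. Myod1 had 1.80 (adjusted p = 0.0665), Myog 1.69 (0.0854), Myh6 5.32 (0.0681), Myl7 2.49 (0.147), Tnni3 2.11 (0.184) and Tnnt2 2.04 (0.0978), all short of the threshold. The calls that held with each library left out were Cav3, Musk, Myh1, Myom2, Pln and Tnnc2. Pln had 3.65 and 3.80 CPM in E13.5 mutants, against 0.305 and 0.353 CPM in E11.5 mutants, and rose by 3.46 ± 0.49 (SE; adjusted p = 7.96e-05). All 10 smooth muscle markers passed as higher in that comparison too, and their part in it was not tested. Myh1 had 5.69 and 2.34 CPM in E13.5 mutants, against 0.305 and 0.617 CPM in E11.5 mutants, and rose by 3.07 ± 0.55 (SE; adjusted p = 6.88e-04). Tnnc2 had 0.916 and 1.32 CPM in E11.5 mutants and rose by 3.17 ± 0.61 (SE; adjusted p = 0.00433) in those of E13.5. Musk rose by 2.61 ± 0.62 (SE; adjusted p = 0.00398). Myom2, Cav3 and Tcap had 3, 2 and 3 counts in E11.5 mutants, and their ratios of E13.5 over E11.5 mutants were 56.5 (95% exact interval 19.1 to 275.6), 26.1 (7.01 to 218.7) and 7.71 (2.45 to 39.0). The other skeletal members that passed rose by 5.14 (Myh8), 3.6 (Mylpf), 3.21 (Myl1), 3.12 (Chrng), 2.72 (Neb), 2.39 (Tnni2), 2.05 (Tnnt3), 1.93 (Casq1) and 1.72 (Tnnt1) on the log2 scale. The other cardiac and shared ones rose by 4.10 (Tnnc1), 3.73 (Myl4), 3.30 (Sln), 3.10 (Actn2), 2.88 (Casq2), 2.18 (Myom1) and 1.36 (Smpx). Their adjusted p lay between 0.00558 and 0.0462, and each missed the threshold in at least 1 alternative.

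Ratios between members of the same library leave out its library size, and were chosen for description after the values were seen. Myog over Myod1, in RPKM, was 2.76 and 3.15 in E13.5 mutants, 2.89 and 3.33 in E13.5 controls, 2.85 and 3.27 in E11.5 mutants and 2.05 and 2.39 in E11.5 controls. The ratio of the 2 regulators thus stayed between 2.05 and 3.33 in libraries whose Myod1 ranged from 2.03 to 30.1 CPM. Myh3 over Myog was 0.893 and 0.736 in E13.5 mutants and 0.652 and 0.765 in E13.5 controls, but 0.205 and 0.242 in E11.5 mutants and 0.0778 and 0.158 in E11.5 controls. The E13.5 groups overlapped and both lay above E11.5. Myh8 over Myog was 0.165 and 0.126 in E13.5 mutants and 0.151 and 0.125 in E13.5 controls, against 0.0105 and 0.0158 in E11.5 mutants and 0.0190 and 0.0145 in E11.5 controls. Chrng over Myog was 0.149 and 0.117 in E13.5 mutants and 0.134 and 0.120 in E13.5 controls, also with overlap, as was Myl1 over Myog. Mylpf over Myog was 1.99 and 1.54 in E13.5 mutants and 1.36 and 1.37 in E13.5 controls, with the mutants higher. Tnnt1 over Myog was 1.68 and 1.76 in E13.5 mutants and 3.49 and 2.02 in E13.5 controls, Neb over Myog 0.0834 and 0.0814 against 0.0638 and 0.0752, and Ryr1 over Myog 0.0801 and 0.0737 against 0.107 and 0.0955. Of 9 skeletal genes set over Myog, Casq1 included, 4 had overlapping E13.5 groups, Mylpf and Neb were higher in both mutants, and Tnnt1, Ryr1 and Casq1 lower. Pax7 over Myod1 differed, at 0.118 and 0.120 in E13.5 mutants and 0.188 and 0.230 in E13.5 controls, with 0.234 and 0.274 in E11.5 mutants and 0.256 and 0.303 in E11.5 controls.

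Casq1 over Myog was 0.127 and 0.193 in E13.5 mutants and 2.25 and 0.921 in E13.5 controls, so this gene did not keep pace with the skeletal regulators. Actc1 over Acta1 was 4.47 and 3.97 in E13.5 mutants, against 16.0 and 10.9 in E13.5 controls. Tnni3 over Tnni1, the cardiac over the slow troponin I, was 0.305 and 0.293 in E13.5 mutants, against 0.764 and 0.601 in E13.5 controls. Both ratios were thus lower in both E13.5 mutants. Within the heart genes, Myh7 over Myh6, the slow or ventricular over the atrial heavy chain, was 0.483 and 0.766 in E13.5 mutants and 0.236 and 0.283 in E13.5 controls; slow skeletal fibres also make Myh7.

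**Figure D5:**
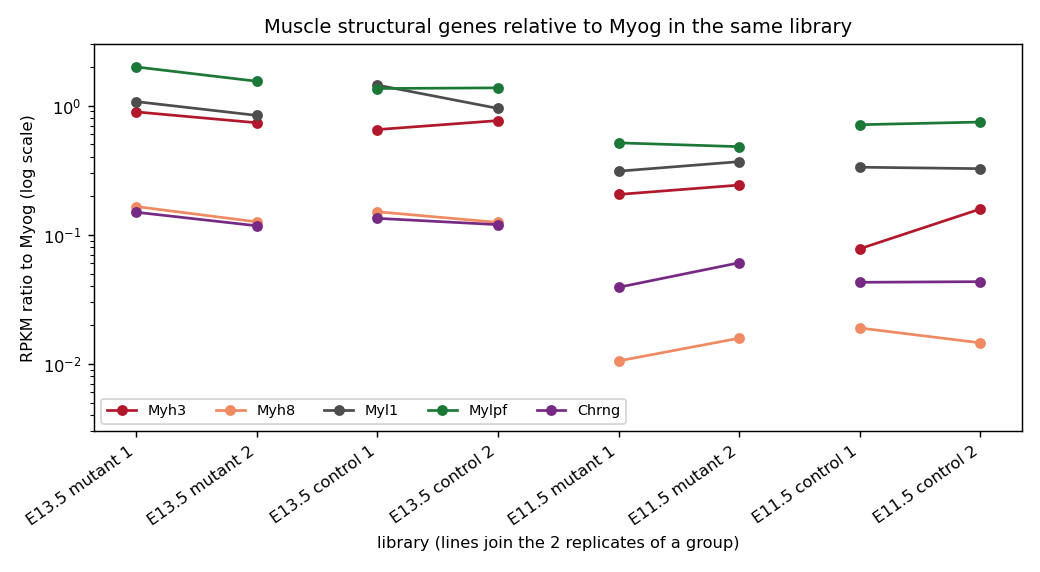
RPKM of 5 structural skeletal genes divided by that of Myog in the same library, on a log axis, with lines joining the 2 replicates of a group. The E13.5 groups overlap for Myh3 (0.893 and 0.736 in mutants, 0.652 and 0.765 in controls) and Myh8 (0.165 and 0.126 in mutants, 0.151 and 0.125 in controls), and lie above all E11.5 libraries.

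Genes of the same pathways outside the 49 were read from further lists. Of 37 other skeletal genes tested 7 passed as higher and 0 as lower in E13.5 mutants, against 5.97% and 5.82% of all genes. Their median log2 fold change was 0.95. Of 23 other cardiac genes tested 0 passed as higher and 5 as lower, with a median of -0.95. Of 5 regulators of branchial muscle tested 2 passed as higher. Eya1, a coactivator that acts before Myod1, had 65.4 and 47.8 CPM in E13.5 mutants, against 22.4 and 21.0 CPM in E13.5 controls. The groups were apart, and it rose by 1.38 ± 0.14 on the log2 scale (SE; adjusted p = 9.84e-05); it also acts in other tissues of the foregut. The fast heavy chains Myh13 and Myh4 rose, by 2.21 ± 0.44 (adjusted p = 0.00461) and 2.02 ± 0.44 (adjusted p = 0.00862), as did Msc, a repressor in branchial muscle, by 1.84 ± 0.39 (adjusted p = 0.0363), and Chrnb1, a receptor subunit, by 0.95 ± 0.18 (adjusted p = 0.00336). Nppa, the atrial natriuretic peptide, had 0.591 and 0.176 CPM in E13.5 mutants, against 4.87 and 6.0 CPM in E13.5 controls, and fell by 3.76 ± 0.45 (adjusted p = 9.84e-05). Kcnj3, an atrial potassium channel, fell by 2.16 ± 0.54 (adjusted p = 0.0232), Nkx2-5, a regulator of heart identity, by 1.43 ± 0.38 (adjusted p = 0.0357), and Gja5, an atrial and arterial connexin, by 0.95 ± 0.14 (adjusted p = 0.00109). Of these 9 genes Nppa, Eya1, Chrnb1 and Gja5 passed with each library left out. Leaving out E13.5 control replicate 1 ended the call of the other 5 (adjusted p 0.0533 to 0.312), and E13.5 mutant replicate 1 that of Myh13 and Myh4 (0.0552 to 0.107). E13.5 control replicate 2 ended that of Myh4 and Msc (0.0814 to 0.167), E13.5 mutant replicate 2 that of Kcnj3 and Nkx2-5 (0.0768 to 0.136), either E11.5 mutant library that of Msc (0.0810 to 0.0852), and either E11.5 control library that of Msc and Nkx2-5 (0.0556 to 0.0712). At E11.5 the 1 gene of these lists that passed was Bves, a membrane protein of heart and muscle, with 12 and 11 CPM in E11.5 mutants, against 22.9 and 20.2 CPM in E11.5 controls (log2 fold change -0.90, adjusted p = 0.0202). It lost the call without any 1 of the 4 E11.5 libraries (adjusted p 0.0722 to 0.296).

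Markers of the other tissues in the dissection were set beside these results. At E13.5 the 8 epithelial markers summed to 966 and 1002 CPM in mutants, against 654 and 678 CPM in controls. Of these 6 passed as higher, and all 8 had a log2 fold change above 0. Over all genes tested 5.97% passed as higher at E13.5 and 5.82% as lower. The 8 cartilage markers summed to 592 and 367 CPM in E13.5 mutants, against 902 and 912 CPM in E13.5 controls. Of the 7 tested 4 passed as lower, and all 7 were below 0. The 6 erythroid markers summed to 890 and 929 CPM in E13.5 mutants, against 1905 and 1388 CPM in E13.5 controls. Of these 1 passed as lower, and all 6 were below 0. The 5 thyroid and parathyroid markers summed to 2.85 and 3.04 CPM in E13.5 mutants, against 11 and 14.6 CPM in E13.5 controls. Of the 3 tested 2 passed as lower, and all 3 were below 0. The 4 markers of oesophagus or stomach, 2 of them at 0 in every library, summed to 52.9 and 60.3 CPM in E13.5 mutants. In E13.5 controls they summed to 28.3 and 29.5 CPM. Of the 2 tested 1 passed as higher. That gene was Nkx6-1, with 35.5 and 43.1 CPM in E13.5 mutants, against 11.1 and 14.7 CPM in E13.5 controls. Barx1 stayed close, with 17.4 and 17.2 CPM in E13.5 mutants, against 17.1 and 14.8 CPM in E13.5 controls. The difference in the sum was thus mostly that of Nkx6-1, and the sum does not measure how much oesophagus or stomach was in the dissection. The 8 neuronal and glial markers summed to 205 and 248 CPM in E13.5 mutants, against 252 and 225 CPM in E13.5 controls. Of these 1 passed as higher, with 3 above 0 and 5 below. None of these sums parted the 2 E13.5 mutant libraries as far as the skeletal class did, 2.61-fold, or the cardiac class, 3.55-fold. The part of the dissection's other tissues in the striated muscle results was not tested.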

How the data were processed

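Gene expression was measured by RNA-seq of total RNA in 8 libraries of dissected trachea, 2 in each of 4 groups. The authors deposited a table for each stage, the E11.5 one with 37528 entries and the E13.5 one with 37532. Per the file headers, every library has a column of raw counts and one of read density. Between 76.2% and 82.6% of the deposited counts above 0 were not whole, so they are estimated counts. The read density deposited by the authors is an RPKM, as found from the values. The submitters' processing notes name mm9, Cufflinks 2.0.2, DESeq, TopHat2 2.0.8 and Bowtie2 2.1.0. Which of these made the counts, and the annotation, are not given in the sources used here. As the kit does not mark strand, reads of a gene and an antisense partner cannot be told apart.

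Counts were summed per symbol and rounded to whole numbers; the design had assumed whole counts. Entries without a gene (2 and 6 per table, at most 0.0253% of a library's counts) were left out. Genes were kept by filterByExpr (minimum count 10), scaled by TMM and fitted with edgeR 4.0.16 in R 4.3.3, 1 mean per group, quasi-likelihood, robust, with 4 residual degrees of freedom and a common biological coefficient of variation of 7.79%. TMM factors were 0.980 to 1.020. Adjustment followed Benjamini and Hochberg across the 14903 genes tested, and 2 libraries a group limit the precision. The fit was tested on simulated data in which every gene had the same coefficient of variation. That test does not speak for the members whose replicates lay far apart. Exact permutation of 2 against 2 libraries could not go below p = 0.333 and was not used. Reads carry no molecular identifiers, so counting intervals cover counting error only. RPKM served for levels between genes and ratios within a library, and Neb was summed over 2 entries.

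The 49 members and all lists were chosen with earlier results of these data known. Named genes are members past the threshold in a comparison and 10 defining genes fixed by name (Myod1, Myog, Myh3, Acta1, Ttn, Myh6, Myl7, Tnni3, Tnnt2, Actc1); from other lists, at most the 10 largest changes past it. At E13.5, 1 of these 10 is not reported here. Members given by level only were chosen for their role or after their values were seen. Alternatives were DESeq2 1.42.0, limma-voom 3.58.1, other size factors, no filter, no robust fit, a replicate block, only the 4 libraries compared, and each library left out.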

Additional observations from a re-analysis of the deposited data

Results flagged for a closer look

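The genotype effect differed between the stages, by the interaction term of the edgeR fit with Benjamini-Hochberg adjustment, for 2 genes outside the 49 members that belong to the lists of other muscle genes. Eya1, a coactivator that works upstream of the myogenic regulators, had 65.4 and 47.8 CPM in E13.5 mutants, against 22.4 and 21.0 CPM in E13.5 controls, and 30.6 and 29.0 CPM in E11.5 mutants, against 24.4 and 24.2 CPM in E11.5 controls. Its log2 fold change of mutant over control was 1.09 larger at E13.5 than at E11.5 (adjusted p = 0.0136). Gja5, an atrial and arterial connexin, had 19.3 and 15.8 CPM in E13.5 mutants, against 36.0 and 32 CPM in E13.5 controls, and 36.6 and 29.9 CPM in E11.5 mutants, against 32.2 and 39.0 CPM in E11.5 controls, an interaction of -0.85 (adjusted p = 0.0401). Eya1 lost the call without E11.5 control replicate 1 (adjusted p = 0.0736), E11.5 control replicate 2 (0.0634), E11.5 mutant replicate 1 (0.0632), E11.5 mutant replicate 2 (0.0676), E13.5 control replicate 1 (0.0634) or E13.5 control replicate 2 (0.0711). Gja5 lost it without E11.5 control replicate 1 (0.132), E11.5 mutant replicate 1 (0.121), E13.5 control replicate 1 (0.158), E13.5 control replicate 2 (0.0650) or E13.5 mutant replicate 2 (0.0579). With limma-voom both missed the threshold, at 0.0570 and 0.0674. Endothelial markers, a tissue in which Gja5 is also made, summed to 279 and 320 CPM in E13.5 mutants, against 396 and 445 CPM in E13.5 controls, and their part in the Gja5 result was not tested.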

How the results depend on the processing

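The number of members past the threshold depended on the fit. At E13.5 mutants against controls gave 5, and gave 10 with DESeq2, 12 with limma-voom, 21 with a fit that was not robust (all genes called: 1757, 1232, 1744 and 1711), 1 with only the 4 libraries compared, and 2 to 20 with 1 library left out, the 20 without E13.5 mutant replicate 2. All genes called at E13.5 were 935 to 1770 with 1 library left out. Counts of members with 1 library left out are therefore not read as results about the members. The same holds for fits of the 4 libraries alone, whose number of all genes called is given here only at E11.5. Smpx passed in every alternative run, while Casq1, Pln, Tnnc2 and Tnni2 each missed in some. At E11.5 the count of 0 became 1 with DESeq2 and 1 with the 4 libraries alone. It also moved with 1 library left out, as did that of the interaction. All genes called were then 20 to 100 at E11.5 and 280 to 674 for the interaction. Controls between stages gave 23, and 5 to 36 with 1 library left out (all genes called: 6320, and 4462 to 6505). Mutants between stages gave 27, 13 with the 4 libraries alone, and 7 to 38 with 1 left out. All genes called in mutants were 7216, and 5379 to 7156 with 1 left out. Of the members called between stages 4 of 23 in controls and 6 of 27 in mutants passed in every alternative run. Log2 ratios of the summed levels with 1 library left out were, for mutants over controls at E13.5, 0.65 to 2.04 (skeletal), -3.18 to -1.25 (cardiac) and -1.50 to -0.068 (shared), and at E11.5 0.45 to 1.13, -0.31 to -0.055 and -0.33 to 0.21. For E13.5 over E11.5 they were 1.43 to 2.1, 3.11 to 4.33 and 2.69 to 3.66 in controls and 1.63 to 3.01, 0.86 to 2.69 and 1.84 to 3.24 in mutants. With RPKM in place of CPM the E11.5 cardiac ratio was -0.52, against -0.19. Signs turned with 1 library left out for Actc1 at E11.5 (-0.11 to 0.86), Acta1 at E11.5 (-0.010 to 0.067), Ttn at E13.5 (-1.03 to 0.56) and the interactions of Myog (-0.43 to 1.03) and Myh3 (-1.78 to 0.74). The causes were not tested. Over all genes, the 54 called at E11.5 became 92 without a filter, 90 with DESeq2, 29 with limma-voom and 120 with the 4 libraries alone.

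The replicate numbers share only a number: deviations of same-numbered libraries correlated at 0.0599 (E13.5 groups) and 0.0239 (E11.5 groups), and with 2 pairs this is no more than a hint. With the replicate block the members called at E13.5 were 23 (52.3%), against 12.2% of all genes tested. They were 2 at E11.5, where all genes called were 90. For the interaction they were 4, for controls between stages 30 and for mutants between stages 34. The share of all genes is not given for these last comparisons, so their counts are not read as results about the members.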
